A study of Homo sapiens with 4 samples.

Results

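Nonsense-mediated decay was described here through 10 genes, 7 that encode its factors (SMG1, SMG5, SMG6, SMG8, SMG9, UPF1 and UPF2) and 3 whose transcripts it is known to degrade (SNHG1, SNHG12 and ZFAS1). The genes were taken by name from a list drawn up with earlier results of these arrays known, and every probe set that the platform annotation assigns to 1 of them alone was kept, which gave 21 of the 49293 probe sets and 10 of 18132 genes. The comparison set U87MG cells, an established human glioma line, carrying the PC-490 plasmid, made to raise the microRNA miR-490, against U87MG cells carrying the empty plasmid (PCDNA), with 2 arrays in each group. Both groups were transfected, grown in multiwell plates and harvested 48 h later, and 100 ng of total RNA from each was hybridised to a PrimeView 3' expression array. The question was which transcripts differ when miR-490 is raised, and SMG1 has been reported as a target of miR-490 in glioblastoma. The share of cells that took up the plasmid is not given in the labels, no level of miR-490 itself was analysed here, and nothing in the labels tells whether the 2 arrays of a group came from separate cultures, so the p-values measure array-to-array spread that may be technical.

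Nonsense-mediated decay removes messenger RNAs on which the ribosome stops early. The helicase UPF1 gathers at such a stop, UPF2 joins it to proteins left at exon junctions downstream, and the kinase SMG1, held in check by SMG8 and SMG9, then phosphorylates UPF1. Phosphorylated UPF1 recruits SMG6, which cuts the RNA, and SMG5, which helps to remove its cap and tail and to reset UPF1. Host genes of small nucleolar RNAs, such as SNHG1, SNHG12 and ZFAS1, keep a spliced exon RNA with short reading frames that this pathway degrades, so these transcripts serve as readouts of its activity. Several factor messenger RNAs, among them those of SMG1, SMG5, UPF1 and UPF2, are themselves degraded by the pathway. In no sample was decay blocked, so that the role of the 3 host transcripts as readouts comes from this background and not from these arrays.

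The microRNA is shown first because its seed is the part that pairs with a target. The RefSeq table lists 2 mature arms for the miR-490 gene on the plus strand of chromosome 7 of GRCh38.p14, and the labels do not say which arm the plasmid yields. The hairpin at chr7:136903167-136903294 is printed with both arms in capitals, and each arm with its seed, bases 2 to 8, in capitals. No other of the 2370 mature microRNA names in that table shares either seed.
hairpin: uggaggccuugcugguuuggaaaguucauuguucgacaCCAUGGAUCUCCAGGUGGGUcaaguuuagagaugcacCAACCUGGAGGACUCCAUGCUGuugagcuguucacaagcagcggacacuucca
hsa-miR-490-3p: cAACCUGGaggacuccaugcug
hsa-miR-490-5p: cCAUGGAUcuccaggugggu
Sites of these seeds in the transcripts of the 10 genes were not analysed here.

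The annotated starts of the 3 host genes are shown next, for a feature that comes with the class they were chosen from. Such genes are known to start with a C followed by pyrimidines, as ribosomal protein genes do. The 40 bases before and the 20 bases from the annotated RefSeq start (GRCh38.p14) are printed, with the unbroken run of C and T from a first C in capitals.
SNHG1, chr11:62855866-62855925, minus strand: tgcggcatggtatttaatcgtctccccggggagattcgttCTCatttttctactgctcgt
SNHG12, chr1:28581854-28581913, minus strand: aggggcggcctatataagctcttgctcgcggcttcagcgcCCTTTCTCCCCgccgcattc
ZFAS1, chr20:49278602-49278661, plus strand: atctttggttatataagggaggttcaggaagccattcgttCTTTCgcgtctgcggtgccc
The run had 3 bases in SNHG1, 11 in SNHG12 and 5 in ZFAS1. Of 35116 annotated starts, 7.5% had a first C and a run of 3 or more, 4.07% a run of 5 or more and 0.578% a run of 11 or more. In the 40 bases before the start, the letters TATAA stood on the sense strand in SNHG12 and ZFAS1, on the opposite strand also in ZFAS1 (the 2 matches overlap), and on neither strand in SNHG1. They stood on the sense strand in 4.34% of all starts and on the opposite one in 2.23%. Of the 11 annotated starts of 6 of the factor genes, SMG1, SMG5, SMG6, SMG9, UPF1 and UPF2, 0 had such a first C with a run of 3 or more and 0 held TATAA on either strand. These features were picked after the sequences had been seen, and the minimum run of 3 is the run of SNHG1. The features are a description of annotated starts, not of where transcription began in these cells.

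None of the 21 probe sets passed the test of miR-490 against the control vector. After Benjamini-Hochberg adjustment of the limma p-values over 49293 probe sets, 0 of the 21 had an adjusted p under 0.05, as had 0.0% of all probe sets, and the adjusted p of the members lay between 0.9 and 0.996. At an unadjusted p under 0.05 there were 0 members and 2537 probe sets in all, or 5.15% (limma). An exact permutation test of 1 probe set, two-sided, cannot go below 0.333 in this design of 2 arrays a group. The differences of the members, miR-490 minus control, ran from -0.075 to 0.205 on the log2 scale, and the 95% interval of every one of the 21 held 0. In RNA from a whole culture, a lower share of cells that make a transcript and less transcript in each cell cannot be told apart.

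**Figure D1:**
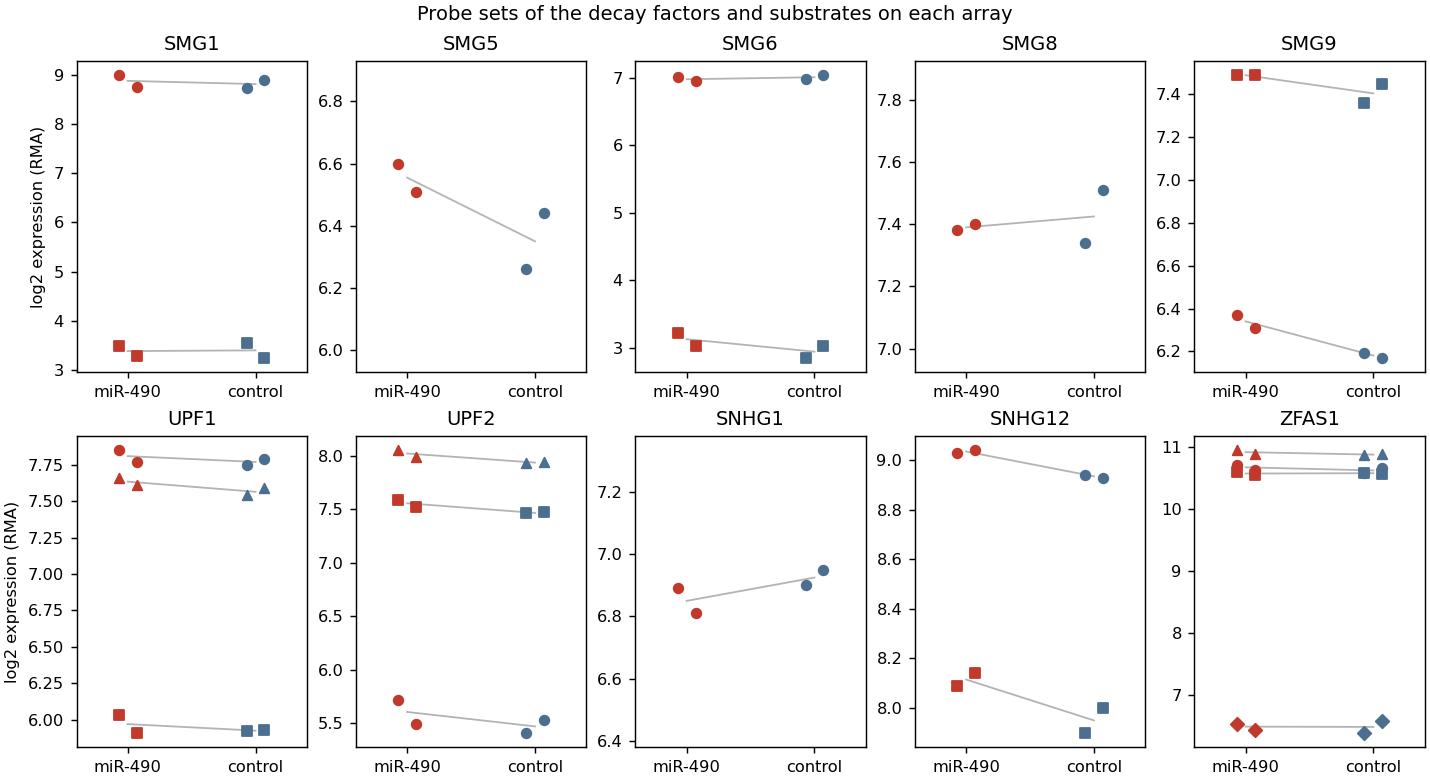
Log2 expression (RMA) of each probe set of the 10 genes, in the miR-490 arrays (red, left) and the control arrays (blue, right) of each panel; a marker shape stands for a probe set within a panel, each point is 1 array and grey lines join group means. Every panel spans at least 1 log2 unit, and the 2 arrays of a group often lie as far apart as the groups.

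SMG1, the kinase that starts the decay step, had a mean difference near 0 in both of its probe sets. In 11728237_at its level was 8.99 and 8.76 in the miR-490 arrays, against 8.73 and 8.89 in the control arrays (log2 expression). One miR-490 array was the highest of the 4 and the other lay between the controls, so the groups overlapped. The group means were 8.875 ± 0.16 with miR-490 and 8.81 ± 0.11 with the control vector (SD, n = 2 each), a log2 difference of 0.065 (95% interval -0.225 to 0.355; adjusted p = 0.985, limma). As a ratio that is 1.05 times the control level, and a level under 0.855 times that of the controls lay outside the interval of this set. The other set, 11728238_x_at, was below the median level of all probe sets, at 3.49 and 3.28 in the miR-490 arrays, against 3.55 and 3.25 in the controls (log2 expression). Its log2 difference was -0.015 (95% interval -0.368 to 0.338; adjusted p = 0.996, limma). As a ratio, that wider interval reached from 0.775 to 1.26 times the control level. The suffix x marks sets with probes that also match other sequences, and SMG1 has near-identical pseudogene copies, so the values of this set are uncertain. One further set, annotated to SMG1 together with several of its pseudogenes, was left out by the rule.

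SMG8 and SMG9 encode the subunits that restrain SMG1. SMG8 was at 7.38 and 7.40 in the miR-490 arrays and at 7.34 and 7.51 in the controls (log2 expression), so that both miR-490 arrays lay between the controls. Its log2 difference was -0.035 (95% interval -0.256 to 0.186; adjusted p = 0.996, limma). For SMG9, 11717649_a_at read 6.37 and 6.31 with miR-490, against 6.19 and 6.17 with the control vector (log2 expression), and both miR-490 arrays were above both controls. That log2 difference, 0.16 (95% interval -0.014 to 0.334), had the smallest p of the 21 sets, with an adjusted p of 0.9 (limma). The second SMG9 set, 11717650_at, was at 7.49 in both miR-490 arrays, against 7.36 and 7.45 in the controls (log2 expression), again without overlap. Its log2 difference was 0.085 (95% interval -0.098 to 0.268; adjusted p = 0.936, limma). Over all probe sets, 15.6% had both miR-490 arrays above both controls.

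UPF1, the helicase that all branches of the pathway use, was measured by 3 probe sets. The set 11717322_a_at was at 7.85 and 7.77 in the miR-490 arrays, against 7.75 and 7.79 in the controls (log2 expression), and the groups overlapped. The set 11754617_s_at was at 7.66 and 7.61 with miR-490 and at 7.54 and 7.59 with the control vector, without overlap. That order, miR-490 above control, was found in 15.6% of all probe sets. In 11754616_a_at the first miR-490 array, at 6.03, was above the other 3, which lay at 5.91 with miR-490 and at 5.92 and 5.93 with the control vector (log2 expression). The 3 log2 differences were 0.04, 0.07 and 0.045, with 95% intervals whose lowest bound was -0.15 and highest 0.246, and adjusted p values of 0.985, 0.952 and 0.983 (limma).

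UPF2, the bridge between UPF1 and exon junctions, also had 3 probe sets with higher means. The set 11755113_a_at was at 8.05 and 7.99 in the miR-490 arrays, against 7.93 and 7.94 in the controls (log2 expression). In 11745896_a_at the values were 7.59 and 7.52 with miR-490, against 7.46 and 7.47 with the control vector, and neither set overlapped between groups. In 11745895_a_at they were 5.72 and 5.49 with miR-490, against 5.41 and 5.53 with the control vector, and the groups overlapped. The log2 differences were 0.085, 0.09 and 0.135, with adjusted p values of 0.932, 0.925 and 0.932 (limma). Of the 3173 genes with 3 single-gene probe sets, 17.2% had all 3 means higher with miR-490. Both miR-490 arrays lay above both controls in 15.6% of all probe sets.

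SMG5 and SMG6 act after UPF1 is phosphorylated. SMG5 had the largest difference of the 21 sets, in its 1 set 11744154_x_at, at 6.60 and 6.51 in the miR-490 arrays, against 6.26 and 6.44 in the controls (log2 expression). Both miR-490 arrays lay above both controls, as in 15.6% of all probe sets. The 2 controls lay nearly as far apart as the group means, whose log2 difference was 0.205 (95% interval -0.033 to 0.443; adjusted p = 0.9, limma). Its suffix x, as in the second SMG1 set, makes the value uncertain. The nuclease SMG6 had no common direction in its 2 sets. Its set 11720869_a_at was at 7.01 and 6.95 with miR-490, against 6.98 and 7.04 with the control vector (log2 difference -0.03; adjusted p = 0.994, limma). Its set 11745314_a_at, below the median level of all probe sets, was at 3.22 and 3.03, against 2.85 and 3.03 in the controls (log2 difference 0.185; adjusted p = 0.906, limma).

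**Figure D2:**
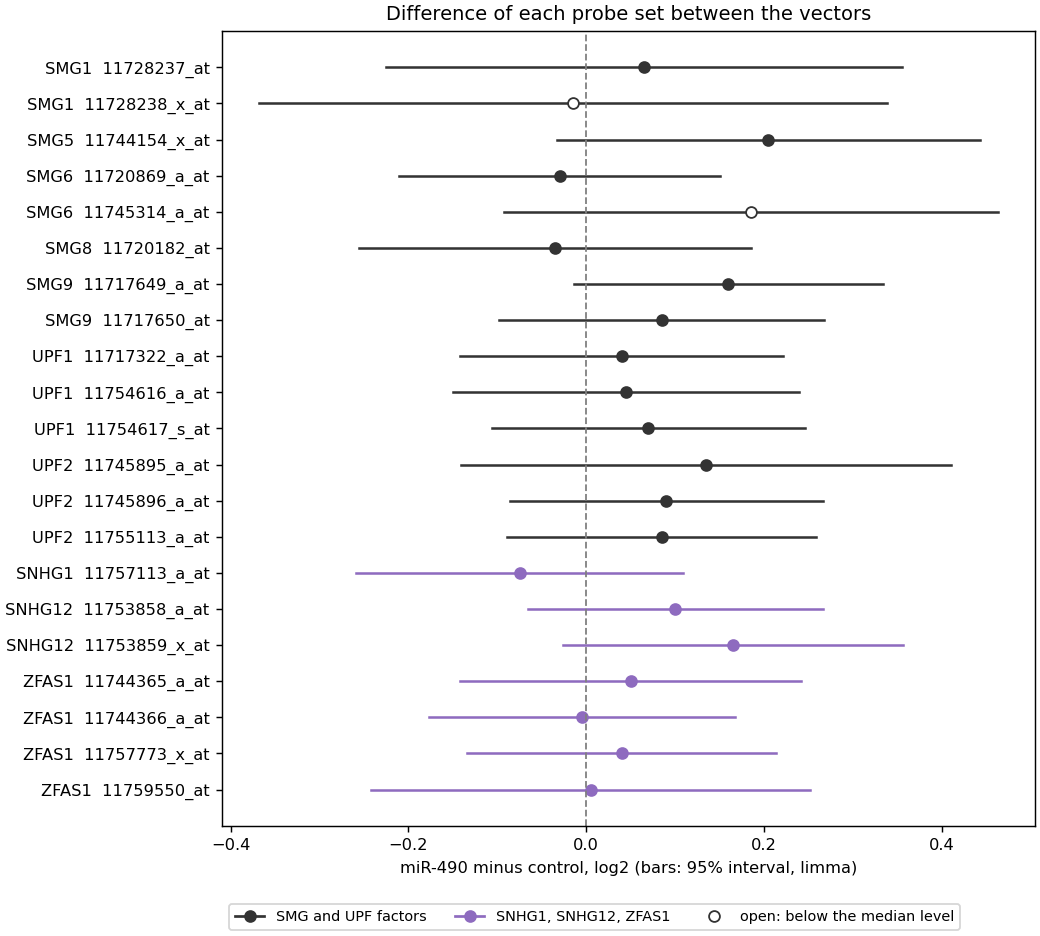
Difference in log2 expression, miR-490 minus control, of each of the 21 probe sets (points) with its 95% interval from limma (bars), factors in black above and host transcripts in purple below; open points were below the median level of all probe sets. The points lie between -0.075 and 0.205 and every interval crosses 0.

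Among the readout transcripts, SNHG12 was the one whose 2 probe sets both lay higher with miR-490. The set 11753858_a_at was at 9.03 and 9.04 in the miR-490 arrays, against 8.94 and 8.93 in the controls (log2 expression). The set 11753859_x_at, which has the same suffix and is uncertain in the same way, was at 8.09 and 8.14, against 7.90 and 8.0 in the controls. In both sets the groups did not overlap, with miR-490 higher, an order that 15.6% of all probe sets had. The 2 arrays of a group lay closer together than the group means. The log2 differences were 0.10 (95% interval -0.066 to 0.266; adjusted p = 0.912, limma) and 0.165 (95% interval -0.026 to 0.356; adjusted p = 0.9, limma), or 1.07 and 1.12 times the control level. Of the 4739 genes with 2 single-gene probe sets, 29.5% had both means higher with miR-490. A further 3 sets annotated to SNHG12 together with a small nucleolar RNA gene were left out by the rule.

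SNHG1 lay the other way. Its 1 probe set was at 6.89 and 6.81 in the miR-490 arrays, against 6.90 and 6.95 in the controls (log2 expression), without overlap, though the higher miR-490 array and the lower control array were almost level. The log2 difference was -0.075 (95% interval -0.259 to 0.109; adjusted p = 0.95, limma), or 0.949 times the control level. Over all probe sets, 15.6% had both miR-490 arrays below both controls.

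ZFAS1 showed the smallest differences of the 3 host transcripts. Its set 11757773_x_at was at 10.95 and 10.89 in the miR-490 arrays, against 10.87 and 10.89 in the controls (log2 expression). The suffix x makes this value uncertain, as in the second SMG1 set. The sets 11744365_a_at and 11744366_a_at were at 10.71 and 10.64, and at 10.60 and 10.55, with miR-490, against 10.58 and 10.67, and 10.59 and 10.57, with the control vector. The set 11759550_at was at 6.54 and 6.44 with miR-490, against 6.39 and 6.58 with the control vector. The groups overlapped in all 4 sets, and the log2 differences were 0.04, 0.05, -0.005 and 0.005 in that order (adjusted p of 0.975 to 0.996, limma). Their 95% intervals reached from -0.242 to 0.252 at the widest, and the signs of the 2 smallest turned after quantile normalisation.

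As groups, the factors had 11 of 14 probe sets with higher means in the miR-490 arrays and the host transcripts 5 of 7, while 49.7% of all probe sets had a higher mean. Of the probe sets above the median level, where all but 2 of the 21 members lay, 47.1% had a higher mean. The median log2 difference was 0.0775 for the factors and 0.04 for the host transcripts, against 0.0 over all probe sets and -0.005 over those above the median level. The factor median was 0.0325 without miR-490 replicate 1, 0.11 without miR-490 replicate 2, 0.06 without control replicate 1 and 0.095 without control replicate 2. The host transcript median was 0.01 without miR-490 replicate 1, 0.07 without miR-490 replicate 2, 0.005 without control replicate 1, 0.095 without control replicate 2 and 0.066 after quantile normalisation. Both miR-490 arrays lay above both controls in 6 of the 14 factor sets, or 42.9%. That order was found in 15.6% of all probe sets and in 14% of those above the median level. The genes having been chosen with earlier results of these arrays known, these counts are a description. The 6 sets belong to 4 genes, SMG5, SMG9, UPF1 and UPF2, and sets of 1 gene share its transcripts, so they are not independent. Both miR-490 arrays lay below both controls in 0 factor sets, and 15.6% of all probe sets did so. In the host transcripts the groups were apart in 2 sets of SNHG12 on the higher side and 1 of SNHG1 on the lower side.

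Single arrays moved with this pattern. The first miR-490 array was the highest of the 4 in 10 of the 14 factor sets, where 22.7% of all probe sets had that order. The first control array was the lowest in 10 of the 14, where 28.3% of all probe sets had that order. These counts partly restate the higher means of 11 of the 14 sets, since both shares are over sets with higher and lower means alike. The 14 sets also come from only 7 genes. The part of either array in the factors' higher means was not tested beyond leaving it out.

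The remaining genes of the pathway were counted in the same way. Of 17 further factors, 14 were measured by 50 probe sets, of which 25 had higher and 24 lower means in the miR-490 arrays (median log2 difference 0.0025); the others were not analysed here. The 4 with the smallest p were PPP2CA, the catalytic subunit of a phosphatase that acts on UPF1, with log2 differences of -0.165, -0.13 and -0.075, the release factor genes GSPT1 (-0.125 to 0.025 over 5 sets) and GSPT2 (-0.13 to 0.01 over 3 sets), and the helicase DHX34 (-0.06 to 0.215 over 3 sets). Their adjusted p values lay between 0.9 and 0.996 (limma). The 10 genes of the exon junction complex and of cap or tail binding had 33 probe sets, 18 higher and 14 lower, with a median of 0.02. There NCBP1, a subunit of the nuclear cap-binding complex, was at 6.29 and 6.27 with miR-490, against 6.71 and 6.40 with the control vector in 1 set (log2 expression; adjusted p = 0.9, limma). Its other set gave a log2 difference of 0.025. MAGOH, a core protein of the junction complex, had log2 differences of 0.02 to 0.115 over 4 sets, CASC3 of -0.155 to 0.045 over 3 and RBM8A of -0.205 to 0.19 over 5, and all of these had adjusted p values above 0.9 (limma).

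A second list held 19 genes that have transcripts known as decay substrates, and 14 of these genes were measured by 51 probe sets. GAS5, SNHG5, SNHG6, SNHG15 and SNHG16 were not analysed here. In the miR-490 arrays 24 of the 51 sets had higher and 26 lower means, and the median log2 difference was -0.005. After adjustment over all probe sets 0 of them passed (limma). Which transcripts of a gene, degraded or not, a set reads was not analysed, so these counts are not a measure of decay. At an unadjusted p under 0.05 there were 2 sets, both higher, where 2.66% of all probe sets were (limma). One belonged to ATF3, a stress transcription factor, at 6.84 and 7.02 with miR-490, against 6.54 in both controls (log2 expression; adjusted p = 0.9, limma). Its other 6 sets gave log2 differences of -0.065 to 0.27. The negative ones were in sets below the median level, and the largest was in a set above it. The second belonged to UPP1, a uridine phosphorylase, in a set below the median level, at 2.96 and 2.94 with miR-490, against 2.61 and 2.48 with the control vector (adjusted p = 0.9, limma). The other UPP1 sets had log2 differences of -0.12 and -0.10. TBL2, whose transcript is used as a readout of decay, had log2 differences of -0.155, 0.02 and 0.03, and the splicing factor SRSF3 of -0.135 to 0.215 over 7 sets.

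**Figure D3:**
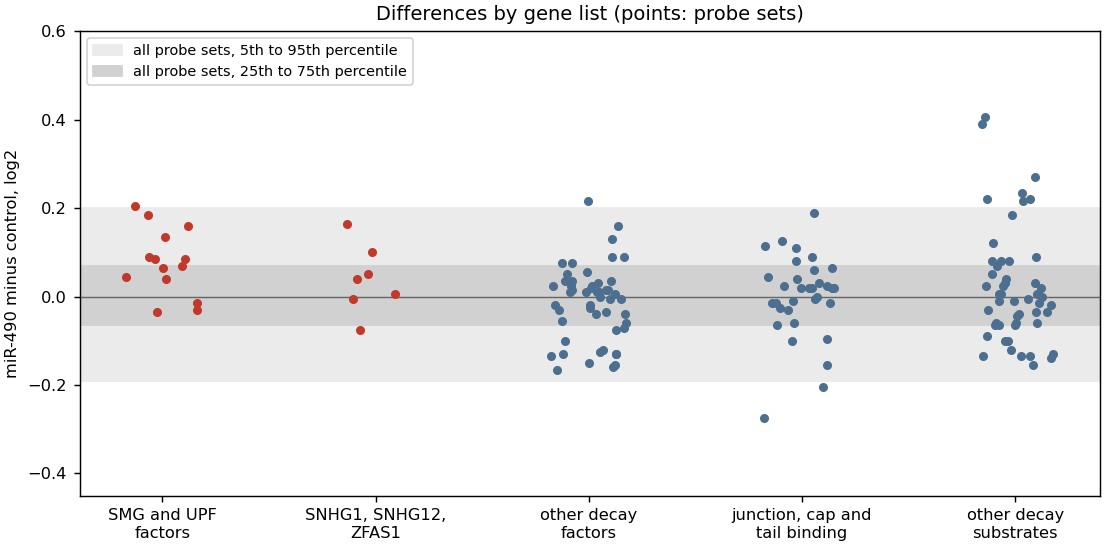
Difference in log2 expression, miR-490 minus control, of each probe set (points) in the factors and host transcripts (red) and in 3 further lists of the pathway (blue), against grey bands that span single probe sets of the whole table, from the 5th percentile at -0.19 to the 95th at 0.20 and, inside it, from the 25th at -0.065 to the 75th at 0.07. The factor and host transcript sets lie between -0.075 and 0.205, and the 2 highest points of the other substrates are sets of UPP1 and ATF3.

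Across the series the array medians lay between 5.15 and 5.17 (log2 expression), and the SD of the log2 difference between the 2 arrays of a group was 0.162 with miR-490 and 0.182 with the control vector over all probe sets. A marker was counted as above the median level if its brightest probe set was. Of 7 glial markers, VIM, CD44 and GFAP were above the median level of all probe sets, while NES, S100B, OLIG2 and SOX2 were not. Of the markers of other cell types above that level were 0 of 4 epithelial, 1 of 4 leukocyte (CD68), 1 of 4 neuronal (SNAP25) and 2 of 4 endothelial genes (KDR and VWF). GFAP passed in 2 of 8 sets, VWF in 1 of 5, KDR in 1 of 2 and SNAP25 in 3 of 4, while VIM, CD44 and CD68 passed in all of theirs. Precision was limited by how few arrays there were, and the 95% intervals of the 21 probe sets reached 0.166 to 0.353 to either side on the log2 scale.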

How the data were processed

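Total RNA of 4 samples was labelled with biotin and hybridised to PrimeView arrays, per the labels' protocols. The authors deposited log2 values for each probe set, which came from RMA according to the submitters' processing notes, without a named software or setting in the sources used here. RMA equalises the arrays, so a shift of most transcripts cannot be seen, and differences of dim probe sets are compressed. Detection calls and scan dates were not used here.

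Of 49293 probe sets, 44988 have 1 gene symbol, 1832 several and 2473 none; 44961 of the first took their current symbol from RefSeq by Entrez ID. Every probe set was fitted with limma 3.58.1 in R 4.3.3 (lmFit and eBayes, no trend, no block, no filter; degrees of freedom 2 residual and 2.73 prior). Tests were two-sided, adjusted by Benjamini-Hochberg over all probe sets at a threshold of 0.05. "Above the median level" means a mean over the 4 arrays above 5.16, the median of such means. The members and lists were chosen with earlier results of these data known. Named are all members and, of each of 3 further lists, the 4 genes with the smallest p. Sequences come from RefSeq tables (GRCh38.p14), in which 9 of the 10 genes have an annotated start. Same-numbered arrays did not deviate together (correlation of deviations -0.0844), and the labels state no shared batch. Alternatives were 2 rescalings, an intensity trend, alone or together with a robust prior, a filter at the median level, 1 probe set per gene, single-gene probe sets alone, the replicate block and each array left out. Figures were drawn with matplotlib 3.10.9.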

Additional observations from a re-analysis of the deposited data

How the results depend on the processing

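In each of the 12 alternatives, 0 probe sets of the 10 genes and 0 probe sets in all had an adjusted p under 0.05 (limma), and the smallest adjusted p of a member was 0.643, without control replicate 2, shared by 4 sets (1 of SMG5, 2 of SMG9 and 1 of SNHG12) and the smallest of all probe sets in that fit. The count of members at an unadjusted p under 0.05 was 0 as reported, 1 with an intensity trend and 1 with the trend and a robust prior (SNHG12 in both), and 2 among probe sets above the median level (SMG9 and SNHG12). Leaving out 1 array rests on the assumption that the single array left in its group has the spread of the other group; under it that count was 0 to 1, the factor median 0.0325 to 0.11 and the host transcript median 0.005 to 0.095. With the replicate block the members had 0 calls and medians of 0.0775 and 0.04, and 1936 probe sets in all had an unadjusted p under 0.05; the block changed no call. That count was 2537 as reported, 2549 after quantile normalisation and 2320 with an intensity trend. It was 1209 above the median level and 1121 with 1 probe set per gene, where fewer were tested. Of 239 alternatives of single member probe sets, 13 had the other sign, none with a call, in both sets of SMG1, in 11744366_a_at and 11759550_at of ZFAS1, in SMG8 and 11754616_a_at of UPF1; for SMG1 the values were -0.015 and -0.05 in 11728237_at and 0.135 and 0.09 in 11728238_x_at, each with 1 array left out. A further 2 sets, 11720869_a_at of SMG6 and 11717322_a_at of UPF1, were at 0 with 1 array left out, and the remaining 13 kept their sign in every alternative that held them. Dim probe sets lie near the floor of these arrays, which limits what their differences can show.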
